A study of Mus musculus with 10 samples.

Results

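The mitochondrial carrier family SLC25 was read in the jejunum of mice that do or do not express yeast NDI1 in the gut epithelium. Its members were taken by name: every gene whose symbol is Slc25a followed by a number, plus the uncoupling proteins Ucp1, Ucp2 and Ucp3. This gave 50 of the 45707 rows in the expression table, spread over 19 chromosomes. The samples were 5 Vil-Cre and 5 Vil-Cre:NDI1 male littermates, 8 to 12 weeks old, fasted overnight for 16 to 18 h and given water by gavage 1 h before the jejunum was taken. All 10 mice carry Vil-Cre, a Cre recombinase driven by the Villin promoter, which is active in intestinal epithelial cells, so the controls share the Cre and differ in the NDI1 allele. That allele holds NADH dehydrogenase of Saccharomyces cerevisiae behind a lox-stop-lox cassette at ROSA26, and it passes electrons from NADH to ubiquinone without pumping protons. The RNA came from whole flushed tissue, so muscle, immune and stromal cells contributed, and fewer cells of a type cannot be told apart from less RNA per cell. The comparison asks whether NDI1 by itself was accompanied by other levels of carrier mRNA.

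Most SLC25 proteins sit in the inner mitochondrial membrane and exchange nucleotides, phosphate, carboxylates, amino acids, cofactors and metal ions between matrix and cytosol. Most are antiporters that switch between a state open to the cytosol and a state open to the matrix. In the small intestine they serve fuel oxidation, and the ornithine carrier feeds the matrix enzymes that make citrulline.

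Values are normalized counts, that is reads per gene divided by the library's size factor, and levels of different genes are compared per kb of merged exons. Each library held 10145705 to 12371530 reads on genes, and the size factors differed by up to 1.288-fold. NDI1 had at most 1 read in a Vil-Cre library and 1002 to 2659 reads in the Vil-Cre:NDI1 libraries, in keeping with the labels of all 10 libraries. The 11 enterocyte markers were all tested, and their summed normalized count was 418040 to 690130 in Vil-Cre and 612560 to 807490 in Vil-Cre:NDI1 mice. The ileal genes Fabp6, a bile acid binding protein, and Slc10a2, the bile acid transporter of the terminal ileum, stood apart in 5 libraries: Vil-Cre 1, 2 and 5 and Vil-Cre:NDI1 4 and 5. Fabp6 was 36.4 to 1477 normalized counts there and 0 to 5.01 in the other 5. The carriers found to split along these libraries without overlap are given below.

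Slc25a5, the ADP/ATP carrier ANT2, was by far the most abundant member. Its level per kb was 12507 ± 1171 (SD, n = 10 mice), and it made up 52.9 to 58.4% of the summed level per kb of all 50 genes. Slc25a3, the phosphate carrier that supplies ATP synthase, came next at 1862 ± 193 per kb. Slc25a5 was above Slc25a3, and Slc25a3 above the third gene, in 10 of 10 mice. Both together held 61.2 to 66.9% of the summed level.

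Below these 2 genes, neighbours in the order were not resolved down to place 10, and genes farther apart were not compared. The members in places 3 to 10 were Slc25a1 at 742 ± 75.5 per kb, Slc25a24 at 705 ± 70.7, Slc25a11 at 664 ± 94.7, Slc25a15 at 636 ± 71.9, Slc25a10 at 634 ± 45.7, Slc25a22 at 614 ± 144, Ucp2 at 583 ± 43.8 and Slc25a39 at 581 ± 66.8. Between neighbours in this run the higher gene led in only 4 to 7 of 10 mice. They carry citrate, ATP-Mg, oxoglutarate, ornithine, dicarboxylates and glutamate, with Ucp2 as the uncoupling protein of broad expression and Slc25a39 as the glutathione carrier. With the longest transcript as the length, the same 10 genes were the highest.

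The upstream sequences of the most abundant member and of the 2 neighbouring uncoupling genes are shown because their levels differ so widely. Ucp3 and Ucp2 lie in tandem on the plus strand of chromosome 7 (GRCm38), at 100472990 to 100486432 and 100493337 to 100502020, with 6904 bp between them. Ucp2 averaged 583 normalized counts per kb and Ucp3 1.61. Each line gives the 250 bases before the start site in RefSeq (GRCm38.p6, plus strand), at chrX:36795347-36795596, chr7:100493108-100493357 and chr7:100472741-100472990. Capitals mark a GC box (GGGCGG on either strand).
Slc25a5: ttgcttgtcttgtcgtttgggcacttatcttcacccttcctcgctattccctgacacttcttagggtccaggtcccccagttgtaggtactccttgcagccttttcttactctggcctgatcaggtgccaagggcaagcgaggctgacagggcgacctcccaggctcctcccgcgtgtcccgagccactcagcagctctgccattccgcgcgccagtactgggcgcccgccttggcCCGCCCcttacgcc
Ucp2: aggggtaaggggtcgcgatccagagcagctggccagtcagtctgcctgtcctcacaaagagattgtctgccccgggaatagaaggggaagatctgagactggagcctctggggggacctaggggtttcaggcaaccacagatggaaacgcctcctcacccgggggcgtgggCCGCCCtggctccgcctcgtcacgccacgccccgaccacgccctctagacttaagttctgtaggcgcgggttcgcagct
Ucp3: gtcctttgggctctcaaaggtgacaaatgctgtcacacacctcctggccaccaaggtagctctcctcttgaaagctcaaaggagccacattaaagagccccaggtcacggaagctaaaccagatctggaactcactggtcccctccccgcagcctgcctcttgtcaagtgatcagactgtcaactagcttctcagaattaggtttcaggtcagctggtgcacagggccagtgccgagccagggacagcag

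One GC box was found upstream of Slc25a5 and 1 upstream of Ucp2, and none upstream of Ucp3. None of the 3 windows held the TATA box letters TATAAA or the letters CCAAT on either strand. The RefSeq table held 49 promoters for 39 of the members. A GC box was in 33 of these 49 (67.3%), against 32.7% of all 32851 promoters of the same length. TATAAA was in 2 (4.1%), against 12.4%, and CCAAT in 21 (42.9%), against 33.8%. These are matches of letters and say nothing about binding of a factor.

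**Figure D1:**
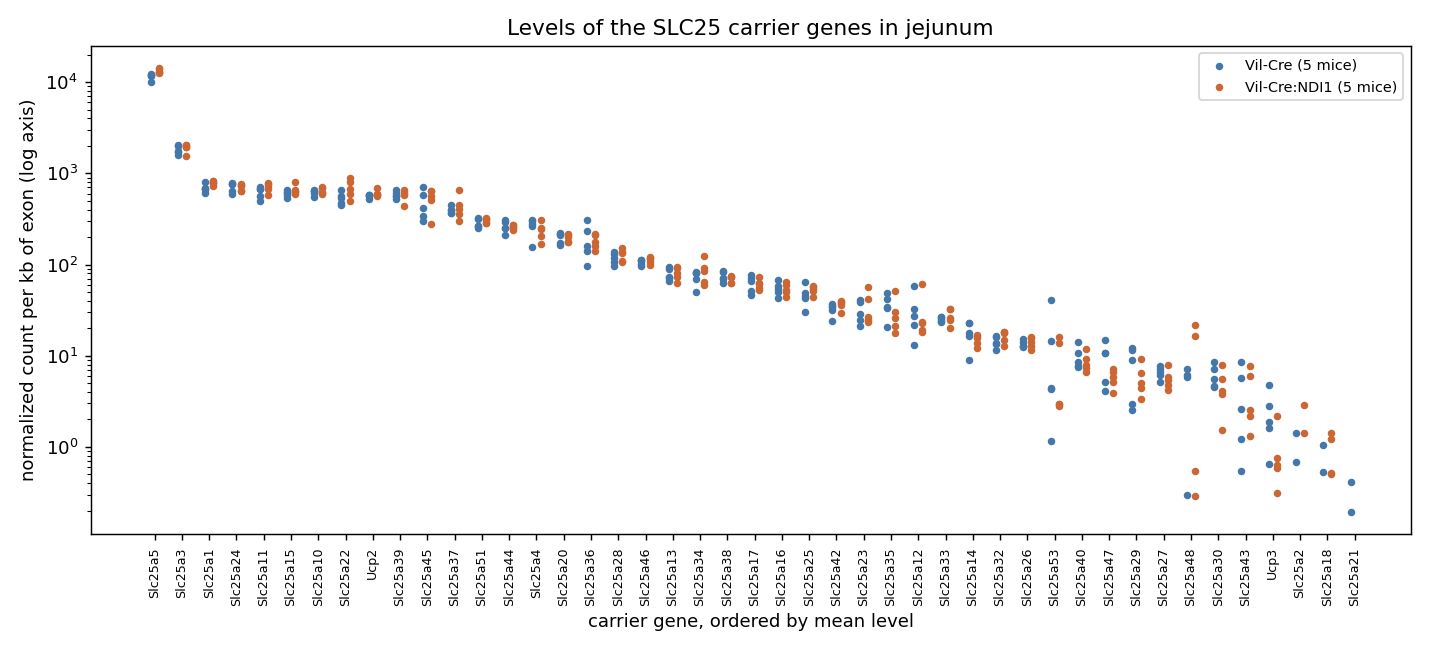
Normalized count per kb of merged exons (log axis) for 45 carrier genes with at least 1 read, ordered by mean level, with 1 point per mouse and mice with 0 not drawn. Slc25a5 stands above all others and Slc25a3 follows; the points of both genotypes lie over each other for most genes.

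At the low end, 4 members had no read in any library: Ucp1, the uncoupling protein of brown fat, Slc25a31, the ADP/ATP carrier of testis, Slc25a41 and Slc25a54. A count of 0 allows up to 3 reads in a library, which is 2.73 to 3.52 normalized counts. Slc25a2, an ornithine carrier like Slc25a15, had at most 4 reads in a library. Slc25a18, a glutamate carrier like Slc25a22, had at most 3, and Slc25a21, the oxoadipate carrier, had at most 2. Ucp3, known from skeletal muscle, ranged from 0.979 to 14.95 normalized counts and Slc25a43 from 0.971 to 15.03. These 9 genes did not reach 10 normalized counts in 5 mice and were not tested.

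Silent or nearly silent members lay next to active ones in 4 places. Slc25a43 lies 18448 bp from Slc25a5 on the X chromosome, at 3.83 against 12507 normalized counts per kb. Slc25a54, without a read, lies 6461 bp from Slc25a24 on chromosome 3. Slc25a41, also without a read, lies 2056 bp from Slc25a23 on chromosome 17, which averaged 32.9 per kb. The Ucp3 and Ucp2 pair is the fourth. By contrast Slc25a29 and Slc25a47, 162 bp apart on opposite strands of chromosome 12, were both low, at 6.62 and 7.39 per kb.

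No carrier gene was called between the genotypes. Of 41 members tested, 0 passed an adjusted p of 0.05 in limma with Benjamini-Hochberg adjustment over 14301 genes, in which NDI1 was the only call (0.00699% of all). At an unadjusted p under 0.05 there was 1 member, Slc25a1 (2.44% of those tested), against 4.23% of all mouse genes tested, and 2.12% for those higher in Vil-Cre:NDI1 as Slc25a1 was. The fitted change was higher in Vil-Cre:NDI1 for 25 members and lower for 16. With libraries rescaled to equal totals that split was 17 higher of 41. The median log2 fold change was 0.050 over the members and 0.0052 over all genes tested, and with rescaling it was -0.012 and -0.057. DESeq2 on recovered reads also called 0 members, with 4 at an unadjusted p under 0.05, and called 0.183% of all genes. edgeR on those reads called 0 members, with 3 at an unadjusted p under 0.05. The share of all genes under that unadjusted p was not computed for DESeq2 or edgeR, so these 2 counts have no background. DESeq2 on the 8 libraries without Vil-Cre 3 and Vil-Cre 4 called 1 member and 1.77% of all genes.

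For 35 of 41 members (85.4%) the 95% confidence interval of the change lay within 2-fold in either direction, against 79.6% of all genes tested. For 24 it lay within 1.5-fold. The median residual SD was 0.23 on the log2 scale for the members and 0.29 over all genes. In 25 members the highest of the 10 mice was under 2-fold above the lowest.

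Slc25a5, on the X chromosome at 36795651 to 36798807 (plus strand, GRCm38), was 20284, 19910, 19297, 19938 and 16592 normalized counts in Vil-Cre mice 1 to 5. It was 22956, 21259, 21212, 20955 and 23462 in Vil-Cre:NDI1 mice 1 to 5. The groups did not overlap, and Vil-Cre 5 was far below its group. The log2 fold change was 0.20 ± 0.09 (SE), with an adjusted p of 0.998 in limma. A two-sided exact permutation test gave p = 0.00794, the smallest that 5 mice against 5 allow, and 0.999 after adjustment over all genes tested. It was the only member of 41 whose groups did not overlap (2.44%), against 0.692% of all mouse genes tested in either direction and 0.399% of them higher in Vil-Cre:NDI1. With equal totals the gap narrowed to 20729 as the highest Vil-Cre value against 20779 as the lowest Vil-Cre:NDI1 value. In sequence, 8.33% of the 100-base windows of Slc25a5 also occurred in other genes, among them Gm5560, Gm5529 and Gm5256, so a part of its reads could have been placed there.

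Its paralog Slc25a4, the ADP/ATP carrier ANT1 of heart and muscle, was much lower. It was 620, 707, 657, 370 and 720 normalized counts in Vil-Cre and 396, 594, 478, 580 and 729 in Vil-Cre:NDI1 mice. The groups overlapped across almost their whole range. Per kb, Slc25a5 exceeded Slc25a4 in 10 of 10 mice, 47.8 ± 17.1-fold in Vil-Cre and 59.0 ± 14.8-fold in Vil-Cre:NDI1 (SD, n = 5 each). The ratios did not differ beyond their spread (two-sided exact permutation test, p = 0.214, adjusted p = 0.921 over 5 pairs).

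Slc25a3 was 9559, 9736, 11402, 11125 and 8741 normalized counts in Vil-Cre and 11329, 10853, 11231, 8642 and 10710 in Vil-Cre:NDI1 mice. The groups overlapped. The 5 lowest values were those of the libraries with ileal markers, Vil-Cre 1, 2 and 5 and Vil-Cre:NDI1 4 and 5. They were 8642 to 10710, against 10853 or more in the other libraries. The log2 fold change was 0.062 ± 0.11, and its 95% confidence interval was -0.17 to 0.30. It was 0.011 without Vil-Cre 5 and 0.13 without Vil-Cre:NDI1 4. With a term for the libraries with ileal markers, added after the data were seen, it was 0.014 ± 0.080. Among the ATP-Mg/phosphate carriers, which set the matrix pool of adenine nucleotides, Slc25a24 went from 2434 ± 296 to 2405 ± 211 normalized counts (SD, n = 5 each).

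The 3 tested carboxylate carriers were all fitted higher, and none was called. Slc25a1, the citrate carrier that exports citrate for lipid synthesis, had the smallest limma p of the members, while the exact permutation test and DESeq2 on recovered reads gave Slc25a5 a smaller one. It was 1469, 1327, 1722, 1470 and 1490 normalized counts in Vil-Cre and 1558, 1800, 1713, 1793 and 1715 in Vil-Cre:NDI1 mice. All but Vil-Cre 3 of the controls lay below all of the NDI1 mice. The log2 fold change was 0.20 ± 0.08, with an adjusted p of 0.998 in limma and an exact permutation p of 0.032, or 0.999 adjusted. It was 0.085 in the 5 libraries without ileal markers, 0.30 in those with them and 0.19 with a term for them. Slc25a11, the oxoglutarate carrier of the malate-aspartate shuttle, went from 1316 ± 193 to 1502 ± 179, and Slc25a10, the dicarboxylate carrier, from 2149 ± 149 to 2229 ± 173. With equal totals the fitted log2 fold change of Slc25a10 went from 0.052 to -0.011.

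Of the aspartate and glutamate carriers, Slc25a22, which brings glutamate into the matrix, had the largest fitted rise of all members. It was 3977, 3355, 2839, 2685 and 3197 normalized counts in Vil-Cre and 2951, 4070, 3590, 5287 and 4828 in Vil-Cre:NDI1 mice. The groups overlapped, and the highest values were Vil-Cre:NDI1 4 and 5, which held ileal markers. The log2 fold change was 0.35 ± 0.16, with an adjusted p of 0.998 in limma and an exact permutation p of 0.095, or 0.999 adjusted. With a term for the 5 libraries with ileal markers, added after the data were seen, it was 0.44 ± 0.10 with an adjusted p of 0.621 in limma, a fit that called 0 members and 0.014% of all genes.

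The malate-aspartate shuttle also needs an aspartate/glutamate exchanger, and Slc25a13 was the more abundant of both paralogs in 10 of 10 mice. Its ratio per kb to Slc25a12 was 3.44 ± 2.25 in Vil-Cre and 3.44 ± 1.49 in Vil-Cre:NDI1 (exact permutation test, p = 0.865, adjusted p = 0.921). Slc25a13 itself was steady, at 299 ± 46.4 and 305 ± 49.9 normalized counts. Slc25a12 varied widely: 198, 241, 160, 95.04 and 429 in Vil-Cre and 141, 451, 167, 172 and 134 in Vil-Cre:NDI1 mice. Vil-Cre 5 and Vil-Cre:NDI1 2 stood far above the others. The neighbouring genes Dync1i2 and Hat1, chosen after the values were seen, ranged from 997 to 1202 and from 95.1 to 172 normalized counts.

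**Figure D2:**
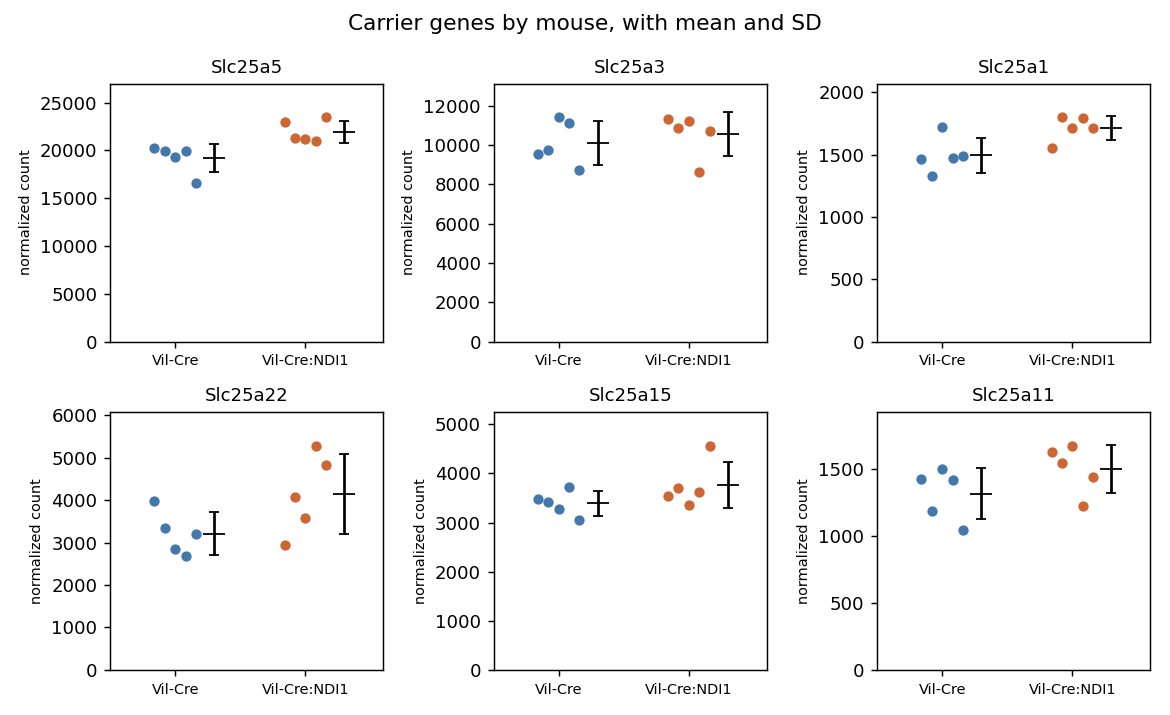
Normalized counts of 6 carriers, 1 point per mouse (blue Vil-Cre, orange Vil-Cre:NDI1), with the mean and SD of each group in black. The groups are apart only for Slc25a5, whose highest Vil-Cre value is 20284 and lowest Vil-Cre:NDI1 value 20955.

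The ornithine carrier Slc25a15, which supplies citrulline synthesis, was 3478, 3423, 3285, 3733 and 3049 normalized counts in Vil-Cre and 3541, 3708, 3367, 3628 and 4570 in Vil-Cre:NDI1 mice. The groups overlapped, and Vil-Cre:NDI1 5 was far above the rest. The log2 fold change was 0.14 ± 0.09, with an adjusted p of 0.998 in limma. Leaving out 1 mouse at a time, it ran from 0.072 without Vil-Cre:NDI1 5 to 0.18 without Vil-Cre:NDI1 3. It was 0.014 in the 5 libraries without ileal markers, 0.30 in those with them and 0.16 with a term for them. Per kb, Slc25a15 averaged 636 normalized counts, against 0.640 for Slc25a2 and 6.62 for Slc25a29, a carrier of basic amino acids. Slc25a20, the carnitine-acylcarnitine carrier of fatty acid oxidation, was 951 ± 126 in Vil-Cre and 953 ± 93.5 in Vil-Cre:NDI1 mice. Slc25a51, the NAD carrier, was 1556 ± 178 and 1678 ± 97.0.

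Among the remaining paralogs, 1 member dominated throughout. The mitoferrin Slc25a37, an iron carrier, exceeded its paralog Slc25a28 per kb 3.45 ± 0.78-fold in Vil-Cre and 3.54 ± 1.62-fold in Vil-Cre:NDI1. The pyrimidine nucleotide carrier Slc25a36 exceeded Slc25a33 7.37 ± 3.00-fold and 6.80 ± 1.32-fold. The glutathione carrier Slc25a40 was at 0.017 ± 0.004 and 0.015 ± 0.003 of Slc25a39. The first 2 ratios were above 1 in 10 of 10 mice and the last in 0 of 10, and exact permutation tests between genotypes gave an adjusted p of 0.921 for each. Ucp2, which transports metabolites in many proliferating and immune cells, was 3930 ± 167 normalized counts in Vil-Cre and 4222 ± 360 in Vil-Cre:NDI1 mice.

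**Figure D3:**
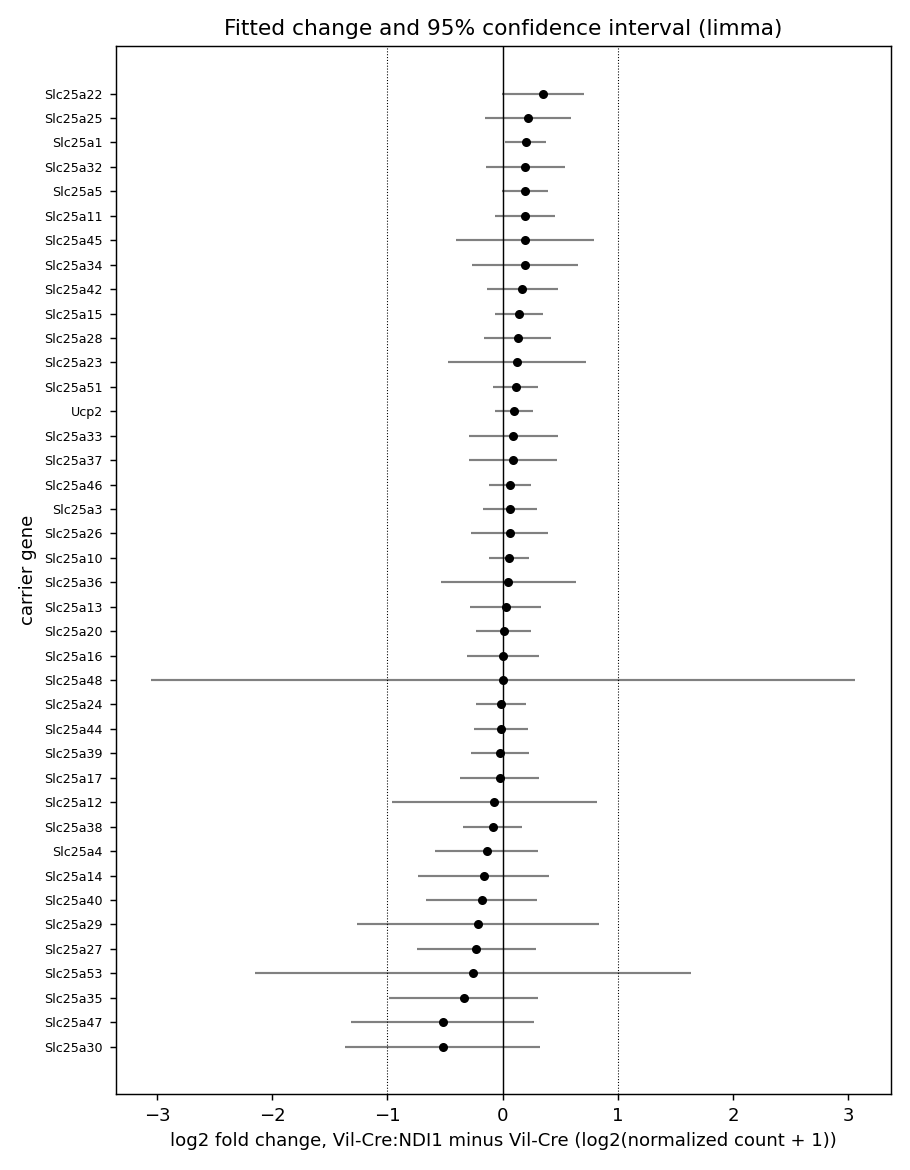
Fitted log2 fold change (points) and 95% confidence interval (grey lines) of 40 tested carrier genes from limma, with dotted lines at a 2-fold change. Slc25a22 has the highest estimate at 0.35 and Slc25a30 the lowest drawn at -0.52, and the intervals of Slc25a48 and Slc25a53 are the widest.

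Summed over the family, the level per kb was 21372 ± 1320 in Vil-Cre and 23690 ± 1069 in Vil-Cre:NDI1 mice (SD, n = 5 each). The ranges were 19041 to 22114 and 22383 to 25293 and did not overlap. With libraries rescaled to equal totals they overlapped, at 20837 to 22525 and 22195 to 23813. Without Slc25a5 they overlapped too, at 8961 to 10391 and 9652 to 11039. As a share of reads on genes, the members took 0.554 to 0.584% in Vil-Cre and 0.574 to 0.612% in Vil-Cre:NDI1 libraries.

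Some members varied widely between mice of both genotypes. Slc25a48, a carrier linked to choline, was 19.6, 20.8, 1.00, 0 and 24.3 normalized counts in Vil-Cre and 0.980, 1.82, 0, 72.5 and 55.2 in Vil-Cre:NDI1 mice. The 5 libraries at 19.6 or more were exactly those with the ileal genes, and the other 5 held at most 1.82. Within those 5 libraries the Vil-Cre:NDI1 mice were above the Vil-Cre mice, with a log2 fold change of 1.51 ± 0.33 and an adjusted p of 0.707 in limma. Slc10a2 was 199 to 561 normalized counts in the first 5 and 2.94 to 20.955 in the others. Slc25a45 ran the opposite way, at 777 to 1421 in the libraries with ileal genes and 1545 to 1937 in the others, without overlap. Slc25a3, Slc25a39 and Slc25a28 were also lower in the libraries with ileal genes without overlap, and Slc25a24 was higher. Slc25a3 was at 8642 to 10710 against 10853 to 11402, and Slc25a39 at 1205.5 to 1594 against 1644 to 1822. Slc25a28 was at 360 to 437 against 489 to 574, and Slc25a24 at 2579.5 to 2684 against 2050 to 2477. Of the 11 enterocyte markers, Fabp1, Apoa4 and Lct were lower in the libraries with ileal genes without overlap, Fabp1 at 3735 to 10227 against 14488 to 17987. Fabp2 was higher in them without overlap, at 56618 to 124880 against 41060 to 48610, and the other 7 overlapped. The carriers named here and the genes set beside them were chosen for this comparison after the values were seen. The share of all genes tested that separated these libraries without overlap was not computed. The split can therefore not be called particular to these carriers. The part of sampling position in these values was not tested.

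Slc25a53, whose substrate is not settled, had the largest ratio of highest to lowest mouse, 34.5, of the members read in every library. It was 9.34, 33.9, 35.1, 323 and 116 normalized counts in Vil-Cre and 22.5, 23.7, 23.2, 109 and 129 in Vil-Cre:NDI1 mice. The 4 high mice were split between the genotypes, and among them Vil-Cre 4 held no Fabp6, while Vil-Cre 1 and 2, which held it, were low. The flanking genes Zcchc18 and Fam199x, also chosen after the values were seen, ranged only from 17.6 to 38.2 and from 91.6 to 147.

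**Figure D4:**
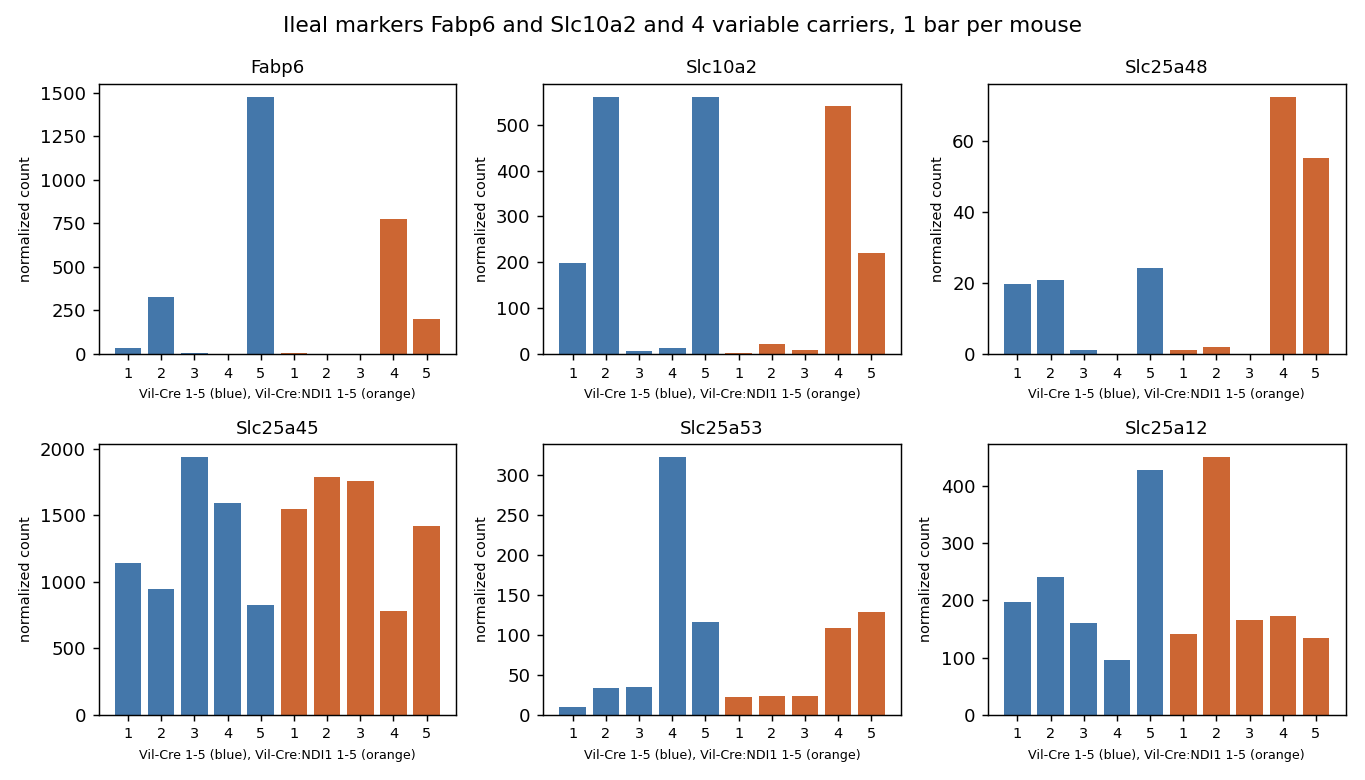
Normalized counts of the ileal genes Fabp6 and Slc10a2 and of 4 carriers, 1 bar per mouse (blue Vil-Cre 1 to 5, orange Vil-Cre:NDI1 1 to 5). Slc25a48 is high in the same 5 mice as Fabp6, and Slc25a45 is lowest in them. Slc25a53 peaks in Vil-Cre 4, which lacks Fabp6, and Slc25a12 in Vil-Cre 5, which has the most, and in Vil-Cre:NDI1 2.

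Of the relations between a carrier and markers of the tissue it is known from, 5 were computed over the 10 mice, and 2 passed. Slc25a4 followed the 8 smooth muscle markers, with Pearson r = 0.97 (permutation p = 5e-05, adjusted 0.00025) and Spearman rho = 0.92 (permutation p = 0.00051, adjusted 0.00255). Without Vil-Cre 4 and Vil-Cre:NDI1 1, the lowest in both, r was 0.86. Slc25a47, a liver carrier, followed the 8 hepatocyte markers, with r = 0.91 (permutation p = 0.00045, adjusted 0.00113) and rho = 0.81 (permutation p = 0.00719, adjusted 0.018). Without Vil-Cre 1 and Vil-Cre 5, r was 0.79. With the genotype means removed both r stayed at 0.97 and 0.89.

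The hepatocyte markers summed to 65.7 to 1645 normalized counts in Vil-Cre and 49.99 to 279 in Vil-Cre:NDI1 mice, and Slc25a47 was 27.1 ± 13.2 and 17.0 ± 3.73. The smooth muscle markers summed to 18424 to 34957 and 20063 to 34440. No tested gene of the 7 marker lists (enterocyte, smooth muscle, leukocyte, adipocyte, brown adipocyte, hepatocyte and proliferating cell) was called in limma. Tested were 6 of 7 adipocyte, 1 of 5 brown adipocyte and 5 of 8 hepatocyte markers, and every marker of the other lists. Slc25a15 gave r = 0.70 with the enterocyte markers (permutation p = 0.060, adjusted 0.075; rho = 0.45, permutation p = 0.193), which fell to 0.045 without Vil-Cre 5 and Vil-Cre:NDI1 5. With the genotype means removed its r was 0.60 (permutation p = 0.073, adjusted 0.112) and 0.57 without 2 mice, and rho was 0.71 (permutation p = 0.027, adjusted 0.046), so the relation passed by rho there and not by r. Ucp2 gave r = -0.63 with the leukocyte markers (permutation p = 0.051, adjusted 0.075; rho = -0.47, permutation p = 0.179). Slc25a20 gave r = -0.03 with the enterocyte markers (permutation p = 0.945; rho = 0.03, permutation p = 0.945).

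**Figure D5:**
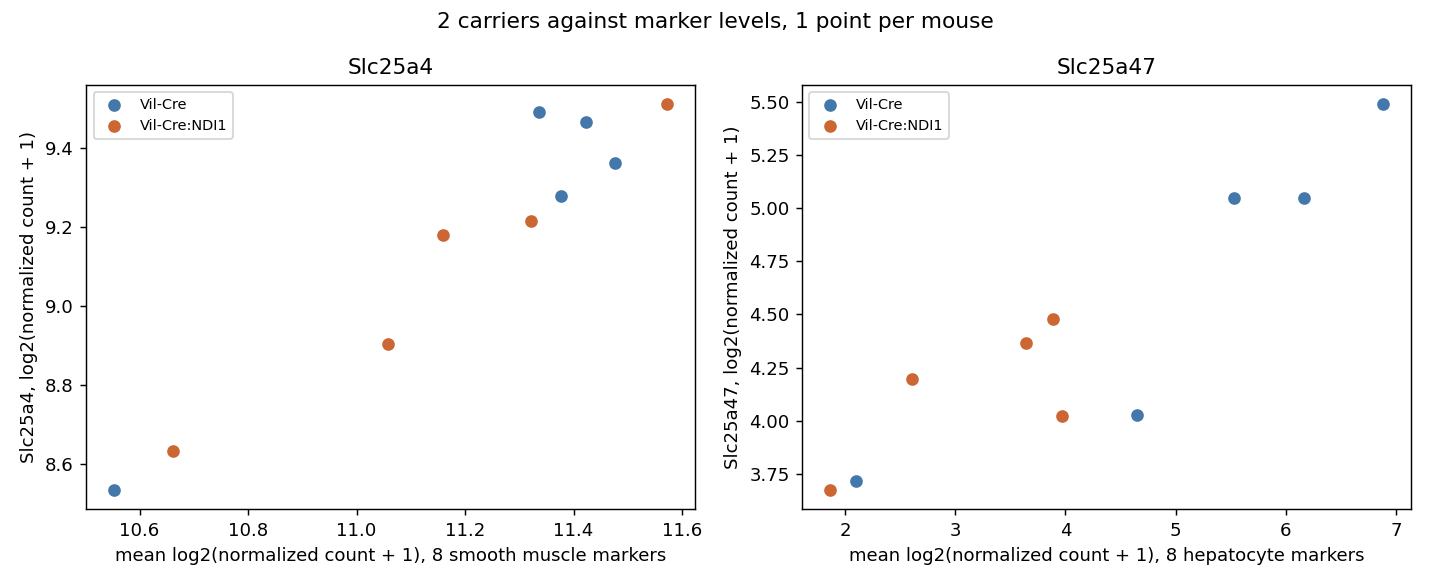
Slc25a4 against the mean of 8 smooth muscle markers (left) and Slc25a47 against the mean of 8 hepatocyte markers (right), all as log2(normalized count + 1), 1 point per mouse. Slc25a4 rises along the markers in both genotypes, and the 3 highest Slc25a47 values are Vil-Cre mice with the highest hepatocyte markers.

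Across mice, 22 of the 820 pairs of tested members (2.68%) had a Pearson r of 0.8 or more in size, against 1.08% of all gene pairs. After adjustment over the 820 pairs, 5 passed, all positive. Slc25a36, the pyrimidine nucleotide carrier, and Slc25a44, a carrier of branched-chain amino acids, had r = 0.98 (permutation p = 2e-05, adjusted 0.0082; rho = 0.93, permutation p = 0.00037, adjusted 0.152), and r = 0.94 without 2 mice. Slc25a39 and Slc25a45 put the 10 mice in the same order, with rho = 1 and r = 0.91 (adjusted permutation p of 0.0082 for both, the smallest 100000 draws can give before adjustment being 1e-05). The other 3 pairs joined Slc25a3 to Slc25a45, Slc25a13 and Slc25a39, with r of 0.96, 0.91 and 0.87 and an adjusted permutation p of 0.036. None of these 3 passed by rho, whose adjusted permutation p was 0.17 to 0.18. Apart from Slc25a36 with Slc25a44, each of these pairs held Slc25a3, Slc25a39 or Slc25a45. Each of those carriers was lower in the libraries with ileal genes than in the others, without overlap. With the mean of each set of 5 libraries removed, an alternative chosen after seeing the data, r was 0.97 for Slc25a36 with Slc25a44, 0.80 for Slc25a39 with Slc25a45, and 0.86, 0.76 and 0.69 for Slc25a3 with Slc25a45, Slc25a13 and Slc25a39. None of the 820 pairs passed there, but the 14400 orders within sets allow 1 pair no adjusted p under 0.057 by itself.

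Genes beside the family gave no limma call either, and 0 of them had an unadjusted p under 0.05. Of 22 tested transporters of the mitochondrial membranes outside the family, 0 were called, with 16 fitted higher, 6 lower and a median log2 fold change of 0.05. Over all genes tested the median in the same fit was 0.0052. With libraries rescaled to equal totals it was -0.057, and the median of these transporters was not computed there. Vdac2, an outer membrane channel, went from 6417 ± 286 to 7109 ± 533 normalized counts. Of 6 tested genes that import carrier proteins, 0 were called, and of 13 enzymes that use the carried metabolites, 0 were called, with 10 fitted higher. Mdh1, the cytosolic malate dehydrogenase of the malate-aspartate shuttle, had the smallest p of these enzymes and went from 7732 ± 1161 to 9020 ± 535 (log2 fold change 0.23 ± 0.11, limma adjusted p = 0.998). The citrulline enzymes Cps1 and Otc were fitted at 0.14 ± 0.17 and 0.11 ± 0.11.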

How the data were processed

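Jejunal RNA from 5 Vil-Cre and 5 Vil-Cre:NDI1 mice was sequenced single-end. After trimming (trimGalore), STAR alignment to GRCm38 with NDI1 added and Salmon counting within nf-core/rnaseq, the authors deposited counts divided by DESeq2 size factors, a signal with no further scaling. The annotation release and strand setting are not given in the sources used here. Of the members, 15 share exon bases with another gene, 13 of them with one on the opposite strand (Slc25a11 with Rnf167, Ucp2 with Dnajb13, for example), so those reads may be shared.

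All 10 samples entered limma 3.58.1 (variance trend) on log2(value + 1), for genes that reached 10 in 5 or more mice. Calls used p-values adjusted over all of them (Benjamini-Hochberg, 0.05). Fold changes are on that scale, which understates changes of low genes. Whole reads were recovered from the steps of the values (100% whole within 0.05). In Vil-Cre 3 and 4 the step was too near 1 to check. Alternatives on these reads used DESeq2 1.42.0 and edgeR 4.0.16. The main limma fit and the DESeq2 and edgeR fits of all 10 libraries were also run on simulated reads. Fits with a block or term, or on fewer libraries, were not. Lengths, coordinates and 100-base windows came from GENCODE M21 (45143 rows matched, all 50 members). Depth limits precision for members under 10 normalized counts, and floors cover counting error only. Replicates of a group differed by 12.1 to 56.3 in chi-square per gene, where 1 is sampling noise, so all were treated as separate samples. The labels number the mice, and p-values between genotypes set the difference against the spread between these mice.

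Named genes were the 10 highest per kb, the 5 smallest p, the unread members, the carriers of the main metabolic routes, the paralog pairs and Slc25a47. Values of 1 member are not reported here. The members, lists and markers were chosen with earlier results of these data known. Alternatives were other pseudocounts, filters, scaling, count tests, a replicate block and leaving out each mouse.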

Additional observations from a re-analysis of the deposited data

Results flagged for a closer look

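The lowest or highest of 5 mice stood apart from its group, by Dixon's gap over range above 0.71, in 7 of 85 groups examined, where chance gives about 4.25. Slc25a5 in Vil-Cre 5 was 16592 normalized counts, against 19297 to 20284 in the other 4 mice. The summed level of the family per kb was also lowest in Vil-Cre 5, at 19041 against 21589 to 22114. Slc25a4 in Vil-Cre 4 was 370 against 620 to 720, in the library with the lowest summed smooth muscle markers. Ucp2 in the same mouse was 3635 against 3964 to 4032. In Vil-Cre:NDI1 mice, Slc25a12 in mouse 2 was 451 against 134 to 172. Slc25a3 in mouse 4 was 8642 against 10710 to 11329. Slc25a15 in mouse 5 was 4570 against 3367 to 3708, in the library with the highest summed enterocyte markers.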

How the results depend on the processing

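The count of members called stayed at 0 under every alternative run except DESeq2 on 8 libraries, where it was 1. For the tested members the limits are 5 mice a group and, below about 10 normalized counts, depth. Replicate numbers did not pair the mice: same-numbered deviations correlated at -0.116 to 0.136, and for 1 of 5 numbers the same number gave the highest correlation. With the replicate block 0 members were called and the median log2 fold change was 0.05. Under the other alternatives the median log2 fold change of the members ran from -0.012 to 0.12.
With equal totals the log2 fold change was -0.00095 for Slc25a3, -0.011 for Slc25a10, -0.036 for Slc25a13, -0.054 for Slc25a20 and -0.012 for Slc25a36. On recovered reads it was -0.045 (DESeq2) and -0.053 (edgeR) for Slc25a36 and -0.0082 (edgeR) for Slc25a20. On 8 libraries Slc25a39 was at 0.071 with DESeq2 and 0.065 with edgeR, and Slc25a29 at 0.24 with DESeq2 and 0.23 with edgeR. With the term for ileal markers Slc25a24 was at 0.039, Slc25a13 at -0.038 and Slc25a36 at -0.061. In the libraries without those markers Slc25a3 was at -0.016, Slc25a24 at 0.11, Slc25a12 at 0.83, Slc25a13 at -0.10, Slc25a20 at -0.24, Slc25a37 at -0.10 and Slc25a36 at -0.55. In those with them the same genes, in this order, were at 0.043, -0.029, -0.85, 0.027, 0.25, 0.42 and 0.43. Slc25a29 was at 0.43 and Slc25a33 at -0.13 in the libraries with them, and at -1.13 and 0.21 in those without. Leaving out 1 mouse at a time, the log2 fold change ran from -0.073 to 0.025 for Slc25a24, -0.075 to 0.074 for Slc25a39, -0.52 to 0.0065 for Slc25a29, -0.38 to 0.21 for Slc25a12, -0.035 to 0.11 for Slc25a13, -0.055 to 0.052 for Slc25a20, -0.075 to 0.21 for Slc25a37 and -0.16 to 0.26 for Slc25a36. The log2 ratio between genotypes ran from -0.24 to 0.44 for Slc25a13 over Slc25a12, -0.27 to 0.10 for Slc25a37 over Slc25a28 and -0.23 to 0.15 for Slc25a36 over Slc25a33. The cause of these turns was not tested. The fits with a term for ileal markers, within the sets of libraries and on 8 libraries were chosen after seeing the data.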
